A study of Saccharomyces cerevisiae with 3 samples.

Results

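The VPS genes of budding yeast were followed through a treatment with the fungicide fluazinam. VPS stands for vacuolar protein sorting, and these genes were named for mutants that secrete vacuolar enzymes in place of delivering them. The members were the genes whose symbol in the array's annotation is VPS followed only by digits, which gave 40 of the 5203 named genes on the array. The rule uses no measured value. Of the 40, 27 had a value on all 3 arrays, 10 on 2 arrays and 2 on 1 array, and VPS27 had none.

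New vacuolar enzymes leave the Golgi bound to a sorting receptor, reach an endosome and pass from there to the vacuole, which is the lysosome of yeast. Retromer and the GARP complex return receptors to the Golgi, and the ESCRT complexes pack membrane proteins marked with ubiquitin into vesicles inside the endosome. The tethers CORVET and HOPS bring endosomes and vacuoles together for fusion, and the Vps34 lipid kinase makes the phosphoinositide, PI3P, that recruits many of these proteins.

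The cells were Saccharomyces cerevisiae S288C, a laboratory strain, grown in YPD (yeast extract, peptone and glucose) at 25 C. Treated cultures of 100 ml received 1.5 uM fluazinam, an agricultural fungicide known as an uncoupler of oxidative phosphorylation, for 2 h in exponential growth, and the untreated cells were grown for the same time without it. Each of the 3 two-colour arrays carried treated cDNA in Cy5 beside untreated cDNA in Cy3, and the series' design text calls the 3 independent biological samples. All arrays had the same dye orientation, so a dye effect cannot be told apart from the treatment. Values are read as log2 ratios. The log base and the direction are not stated in the labels or the file, so treated over untreated is the likely direction. A turned sign would turn every sign in the text, and every fold value in the text holds only if the base is 2. A log ratio holds no level, so how strongly a gene was expressed, and whether markers of the labelled strain were present, was not measured.

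On the 3 arrays 4463, 5245 and 4865 of the 6272 probes had a value, and 3802 features, meaning genes or unnamed probes, had one on all 3 and were tested. Array medians over these were 0.05, -0.07 and -0.03. Medians of the 32 inferred sub-grids of spots ran from -0.91 to 0.57 on replicate 1, from -0.87 to 0.31 on replicate 2 and from -0.78 to 0.55 on replicate 3, so ratios differed by place on the array. The part of this in a gene's value was not tested, and for VPS genes whose mean moves by over 1.5 times or turns, the mean with sub-grid medians subtracted is given as the sub-grid value.

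No VPS gene passed the test. Of the 27 measured on all 3 arrays, 0 were higher and 0 were lower at an adjusted p of 0.05 in limma's moderated test, against 7.86% of all tested features (3.39% higher and 4.47% lower). At an unadjusted p under 0.05 there were 5 VPS genes, or 18.5%, beside 29.7% of all features. These were VPS51, VPS60, VPS3 and VPS73 above 0 and VPS75 below 0. Their adjusted p-values ran from 0.0624 for VPS75 to 0.112 for VPS73. Leaving out replicate 2 raised the share of features called to 17.3%, and the count of VPS genes was still 0. An adjusted p of 0.1 was reached by 3 VPS genes (VPS51, VPS60 and VPS75), or 11.1%, beside 18.8% of all features. After subtraction of sub-grid medians 10.3% of features passed at 0.05 and again 0 VPS genes. The count at 0.05 was also 0 without replicate 1 and without replicate 3, where 0.289% and 0% of features were called.

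The VPS ratios were small. The means over 3 arrays lay between -1.01 and 1.11 with an SD over genes of 0.47, and over all tested features that SD was 0.77. A mean within 0.5 of 0 was found for 18 of the 27 (66.7%), beside 54.9% of all features. The smallest mean of any called feature was 1.07 in size, and 26 of the 27 VPS means were smaller than that. The limma 95% interval of the mean lay between -1 and 1 for 11 of the 27. It reached a 2-fold rise for 12 and a 2-fold fall for 4, so a change of that size is not excluded for those genes.

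The small ratios lay more often above 0 than below it. The 27 means had a median of 0.26 and array medians of 0.43, 0.27 and 0.15, beside a median of 0.00 (-0.0049) over all tested features. It was 0.14 after subtraction of sub-grid medians. The mean was above 0 for 17 of the 27 (63%), beside 49.8% of all features. Ratios above 0 on all 3 arrays were found for 12 (44.4%, beside 25.2% of all features), and ratios below 0 on all 3 for VPS70 and VPS75 (7.41%, beside 27.1%). With sub-grid medians subtracted, 10 were above 0 on all 3 (37%, beside 24.3%) and 4 below it, namely VPS1, VPS4, VPS74 and VPS75 (14.8%, beside 29.6%). These counts describe the group and carry no test.

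**Figure D1:**
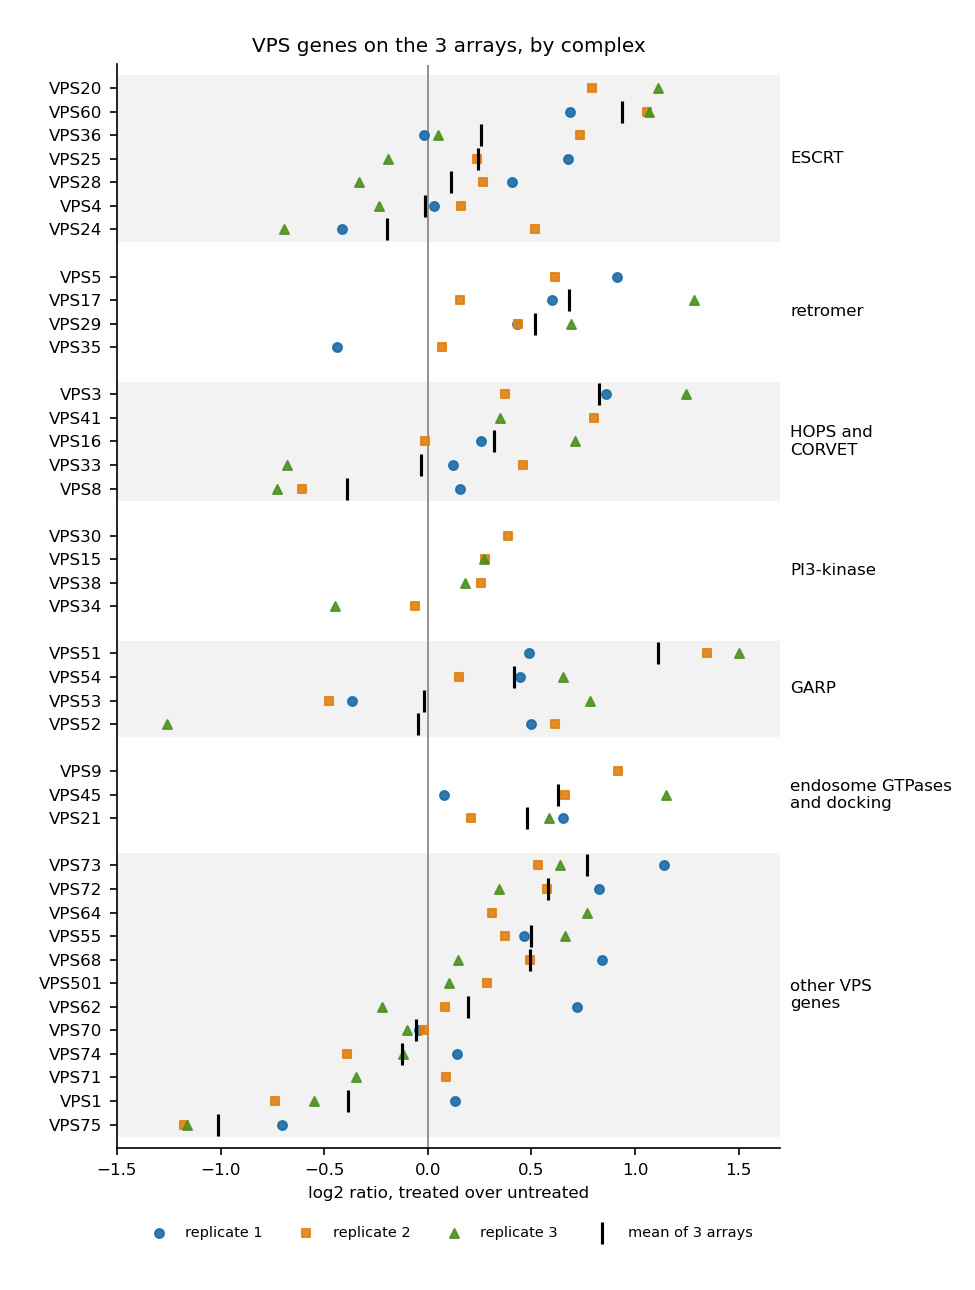
Log2 ratio of treated over untreated cells (x axis) for the 39 VPS genes with any value (y axis), grouped by complex, with a symbol for each array and a black bar for the mean where all 3 arrays had a value. Most genes lie within 1 of the zero line; VPS51 (mean 1.11) is the farthest to the right and VPS75 (mean -1.01) the farthest to the left.

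The spread between arrays was near that of all features. The median SD between arrays was 0.39 over the VPS genes and 0.46 over all features. Across the 27 genes, Pearson's r was 0.51 for replicate 1 against 2, 0.43 for 1 against 3 and 0.47 for 2 against 3. Over all 3802 features the same pairs gave 0.51, 0.63 and 0.43. These values are across genes, which share the arrays and are not independent replicates.

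The ESCRT machinery acts in the order ESCRT-0, -I, -II and -III. VPS27, whose product starts the pathway as part of ESCRT-0, had no value on any array. VPS28 (YPL065W), a subunit of ESCRT-I, had log2 ratios of 0.40, 0.27 and -0.33 on replicates 1 to 3 (mean 0.11 ± 0.39, SD, n = 3). VPS25 (YJR102C), a subunit of ESCRT-II, was at 0.68, 0.24 and -0.19 (mean 0.24 ± 0.43, sub-grid value 0.096). Both were above 0 on replicates 1 and 2 and below it on replicate 3. VPS36 (YLR417W), the ESCRT-II subunit that binds ubiquitin and lipid, was at -0.02, 0.74 and 0.05 (mean 0.26 ± 0.42, sub-grid value 0.081), so replicate 2 alone was clearly off 0.

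The ESCRT-III genes spread more widely. ESCRT-III proteins polymerise on the membrane and cut the vesicle free, and the ATPase Vps4 takes the polymer apart. VPS60 (YDR486C), an ESCRT-III-like protein that acts with Vta1 on Vps4, had log2 ratios of 0.69, 1.06 and 1.07 (mean 0.94 ± 0.22, 95% interval 0.33 to 1.55, limma adjusted p = 0.0707). All 3 of its values lay above 0.6, but it did not pass the test. VPS20 (YMR077C), the subunit that starts the polymer, had no value on replicate 1 and was at 0.79 on replicate 2 and 1.11 on replicate 3. In a fit of features with values on at least 2 arrays, which called 4.8% of 4979 features, its mean of 0.95 had an adjusted p of 0.135 from 2 arrays. VPS24 (YKL041W), a later subunit of the polymer, was at -0.41, 0.52 and -0.69 (mean -0.20 ± 0.63), with replicate 2 opposite to the others, and its mean was 0.23 with sub-grid medians subtracted. VPS4 (YPR173C) itself was at 0.03, 0.16 and -0.23 (mean -0.02 ± 0.20). With sub-grid medians subtracted it was below 0 on every array, at -0.39, -0.042 and -0.57 (mean -0.33).

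The median over the 6 ESCRT genes of VPS name was 0.18, with array medians of 0.22, 0.39 and -0.21, so replicate 3 lay on the other side of 0. It was -0.0047 without replicate 1, 0.026 without replicate 2 and 0.35 without replicate 3. The ESCRT genes of other names gave 0 calls among the 5 measured on all 3 arrays, beside 7.86% of all tested features. All 5 had a mean above 0, beside 49.8% of all features, and 5 genes are too few to set against these shares. Among those with values on 2 arrays, VTA1 was at -0.20 and -0.99 on replicates 2 and 3. SRN2 was at 0.74 and -0.34 on the same arrays, and STP22, SNF8, CHM7 and DOA4 had both values above 0. HSE1, the partner of Vps27 in ESCRT-0, was at 0.89, 0.76 and 0.94 (mean 0.86 ± 0.09, limma adjusted p = 0.0789). IST1, a regulator of Vps4, was at 1.02, 0.78 and 0.93 (mean 0.91 ± 0.12, adjusted p = 0.0716). The 3 arrays lay close together for each of these genes, and neither passed. With sub-grid medians subtracted HSE1 had a mean of 0.59 (limma adjusted p = 0.123) and IST1 one of 0.59 (limma adjusted p = 0.112). BRO1 (mean 0.01 ± 0.22), which brings the deubiquitinase Doa4 to the endosome, and MVB12 (mean 0.04 ± 0.70), a small ESCRT-I subunit, had means near 0.

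Retromer has a cargo-binding part, made of Vps35, Vps29 and Vps26 (gene PEP8), and a membrane-bending pair of sorting nexins, Vps5 and Vps17. VPS29 (YHR012W) was at 0.43, 0.43 and 0.69 on the 3 arrays (mean 0.52 ± 0.15, adjusted p = 0.226), above 0 on each. VPS35 (YJL154C), the largest subunit, was at -0.44 on replicate 1 and 0.07 on replicate 2, and had no value on replicate 3. PEP8 was at 0.54, 0.89 and -0.52 (mean 0.30 ± 0.73), so the cargo-binding part had no common direction. The sorting nexin genes lay above 0 on every array with a value. VPS5 (YOR069W) was at 0.91 and 0.61 on replicates 1 and 2, with none on replicate 3, and VPS17 (YOR132W) was at 0.60, 0.16 and 1.28 (mean 0.68 ± 0.57, adjusted p = 0.189). With sub-grid medians subtracted the mean of VPS17 was 0.36 and that of VPS29 was 0.21, and neither passed. The cargo receptor of carboxypeptidase Y, often called Vps10, stands on this array as PEP1. It was at -0.56, -0.96 and 0.38 (mean -0.38 ± 0.69, adjusted p = 0.478), with replicate 3 opposite to the others.

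CORVET and HOPS share a core of Vps11, Vps16, Vps18 and Vps33, to which CORVET adds Vps3 and Vps8 and HOPS adds Vps39 and Vps41. VPS16 (YPL045W) was at 0.26, -0.01 and 0.71 (mean 0.32 ± 0.37, sub-grid value 0.081). VPS33 (YLR396C), the SNARE-binding member of the core, was at 0.12, 0.46 and -0.68 (mean -0.03 ± 0.59, sub-grid value -0.063). The genes of the other core subunits, PEP5 (Vps11, mean 0.19 ± 0.34) and PEP3 (Vps18, mean 0.21 ± 0.34), also had means near 0, each with 1 array below 0. No core gene kept 1 sign on all 3 arrays.

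The means of the CORVET genes lay on opposite sides of 0, though both genes were above 0 on replicate 1. VPS3 (YDR495C) was at 0.86, 0.37 and 1.25 (mean 0.83 ± 0.44, 95% interval 0.16 to 1.50, adjusted p = 0.108), above 0 on every array. VPS8 (YAL002W) was at 0.16, -0.61 and -0.73 (mean -0.39 ± 0.48, adjusted p = 0.402). VPS8 was therefore below VPS3 on each array, while neither passed the test against 0. Subtraction of sub-grid medians gave means of 0.59 for VPS3 and -0.0052 for VPS8. Of the HOPS genes, VPS41 (YDR080W), which binds the vacuolar Rab GTPase Ypt7, had no value on replicate 1 and was at 0.80 on replicate 2 and 0.35 on replicate 3. VAM6 (Vps39) was at -0.70, 0.02 and 0.48 (mean -0.07 ± 0.59). The 4 tested VPS genes of these tethers had a median of 0.14, which was 0.038 with sub-grid medians subtracted and 0.32 when genes with values on 2 arrays were included.

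None of the 4 VPS genes of the PI3-kinase had a value on replicate 1, so none was tested over all arrays. The kinase gene VPS34 (YLR240W) was at -0.06 on replicate 2 and -0.45 on replicate 3. The gene of its regulatory protein kinase, VPS15 (YBR097W), was at 0.28 on replicate 2 and 0.27 on replicate 3. VPS38 (YLR360W), the subunit of the endosomal form of the complex, was at 0.26 and 0.18. VPS30 (YPL120W), also known as ATG6 and shared by the endosomal and the autophagic form, had only a value of 0.39 on replicate 2. VPS34 was the lowest of these genes on each array that measured it. In the fit of features with at least 2 values, the adjusted p of VPS34, VPS15 and VPS38 was 0.648, 0.613 and 0.695. ATG14, which defines the autophagic form, was measured throughout, at 0.45, 0.91 and 0.99 (mean 0.78 ± 0.29, limma adjusted p = 0.106, sub-grid value 0.55). ATG38 had no value.

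GARP tethers vesicles returning from endosomes to the Golgi and had all 4 of its genes measured on all 3 arrays. VPS51 (YKR020W), the subunit that binds the SNARE Tlg1, was at 0.49, 1.35 and 1.50 (mean 1.11 ± 0.54, a 2.16-fold ratio, 95% interval 0.40 to 1.82, adjusted p = 0.0668). It was the highest mean of any VPS gene, and replicate 1 was the lowest of its values. Its mean was 0.81 (adjusted p = 0.0951) with sub-grid medians subtracted. VPS54 (YDR027C) was at 0.44, 0.15 and 0.65 (mean 0.42 ± 0.25), above 0 on every array. With sub-grid medians subtracted it was at -0.044, 0.0024 and 0.47 (mean 0.14).

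The remaining GARP genes did not follow VPS51. VPS52 (YDR484W) was at 0.50, 0.61 and -1.26 (mean -0.05 ± 1.05, sub-grid value -0.25), which was the widest spread of any VPS gene. Without replicate 3 its mean was 0.56. VPS53 (YJL029C) had the reverse order, at -0.37, -0.48 and 0.78 (mean -0.02 ± 0.70, sub-grid value -0.26). The array medians of GARP, at 0.47, 0.38 and 0.72, were therefore all above the median of its means, 0.20, because different genes were high on different arrays. That median was -0.053 with sub-grid medians subtracted, on the other side of 0, and 0.38 without replicate 2.

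**Figure D2:**
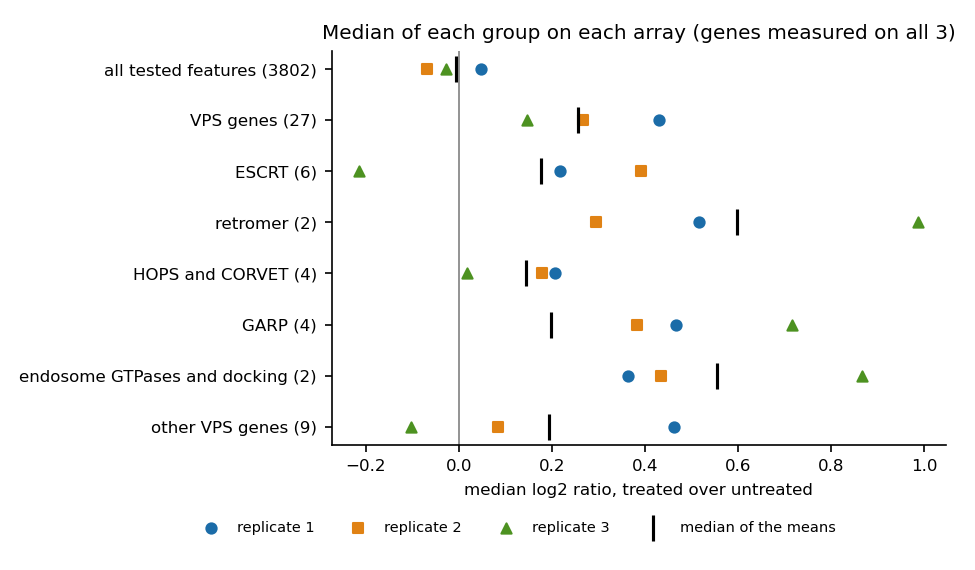
Median log2 ratio of treated over untreated cells (x axis) for all tested features and for the VPS genes by complex (y axis, number of genes measured on all 3 arrays in parentheses), with a symbol for each array and a black bar for the median of the gene means. The median of the 27 VPS genes is 0.43, 0.27 and 0.15 on replicates 1 to 3, and the ESCRT genes lie below 0 on replicate 3 (-0.21).

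Of the genes that control identity and fusion of the endosome, VPS21 (YOR089C), the endosomal Rab GTPase, was at 0.65, 0.21 and 0.58 (mean 0.48 ± 0.24, adjusted p = 0.262, sub-grid value 0.24). VPS9 (YML097C), its exchange factor, had only a value of 0.92 on replicate 2. VPS45 (YGL095C), a Sec1/Munc18 protein that works with endosomal SNAREs, was at 0.08, 0.66 and 1.15 (mean 0.63 ± 0.54, adjusted p = 0.212, sub-grid value 0.37). VPS21 and VPS45 were above 0 on every array, and neither passed. Of 8 further Rab, SNARE and fusion genes measured on all 3 arrays, 0 passed, beside 7.86% of all tested features. A mean above 0 was found for 7 of the 8, beside 49.8% of all features, and the median of the 8 was 0.38. Counts over 8 genes are too small to set against these shares. YKT6 had the lowest mean, at -1.74, -0.16 and 0.27 (mean -0.54 ± 1.06, limma adjusted p = 0.414), and YPT7 had a mean of 0.10 ± 0.48. The SNARE gene VTI1 was at 0.99, 0.73 and 1.18 (mean 0.97 ± 0.22, adjusted p = 0.0659, sub-grid value 0.65). The endosomal syntaxin gene PEP12 was at 0.23, 1.76 and 0.79 (mean 0.93 ± 0.77, adjusted p = 0.127), with replicate 2 far above replicate 1.

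The other 12 VPS genes have varied roles, several of them outside membrane traffic. VPS75 (YNL246W), a histone chaperone that works with the acetyltransferase Rtt109, was at -0.70, -1.18 and -1.16 (mean -1.01 ± 0.27, a ratio of 0.495, 95% interval -1.64 to -0.39, adjusted p = 0.0624). It had the lowest mean and the smallest p of the VPS genes, and all arrays were below -0.7. It passed when the arrays were centred and brought to a common scale (-1.06, adjusted p = 0.0497), where 9.71% of features passed. With sub-grid medians subtracted its mean was -0.62 (adjusted p = 0.109).

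Further chromatin genes carry the VPS name, since VPS71 and VPS72 encode subunits of SWR1, the remodeller that places the histone variant H2A.Z. VPS72 (YDR485C) was at 0.83, 0.58 and 0.34 (mean 0.58 ± 0.24, adjusted p = 0.189), above 0 on every array. VPS71 (YML041C) had no value on replicate 1 and was at 0.09 on replicate 2 and -0.35 on replicate 3. The chromatin genes therefore had no common direction. VPS52, VPS72 and VPS60 are consecutive protein-coding genes on chromosome IV in the reference annotation. On replicates 1 and 2 all 3 neighbours were above 0, and on replicate 3 VPS52 was at -1.26 beside 0.34 for VPS72 and 1.07 for VPS60.

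VPS55 (YJR044C) and VPS68 (YOL129W) encode membrane proteins of a late endosomal complex. VPS55 was at 0.46, 0.37 and 0.66 (mean 0.50 ± 0.15, adjusted p = 0.238). VPS68 was at 0.84, 0.49 and 0.15 (mean 0.49 ± 0.35, adjusted p = 0.270). The means of the partners were alike and above 0 on every array, while the arrays ranked differently.

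VPS73 (YGL104C), a mitochondrial protein of the hexose transporter family, was at 1.14, 0.53 and 0.64 (mean 0.77 ± 0.32, 95% interval 0.13 to 1.40, adjusted p = 0.112, sub-grid value 0.51). VPS1 (YKR001C), the dynamin-like GTPase that pinches off vesicles, was at 0.13, -0.74 and -0.55 (mean -0.38 ± 0.46, adjusted p = 0.406). With sub-grid medians subtracted VPS1 was below 0 on all 3 arrays (mean -0.57, adjusted p = 0.145). VPS70 (YJR126C) lay closest together, at -0.04, -0.02 and -0.10 (mean -0.06 ± 0.04), but was at -0.48, -0.12 and 0.32 (mean -0.092) with sub-grid medians subtracted. VPS74 (YDR372C), which keeps glycosyltransferases in the Golgi, had a mean of -0.12 ± 0.27 (sub-grid value -0.36), and VPS62 (YGR141W) one of 0.19 ± 0.48. VPS64 was at 0.31 and 0.77 on replicates 2 and 3, and VPS501 at 0.29 and 0.10, each without a value on replicate 1.

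**Figure D3:**
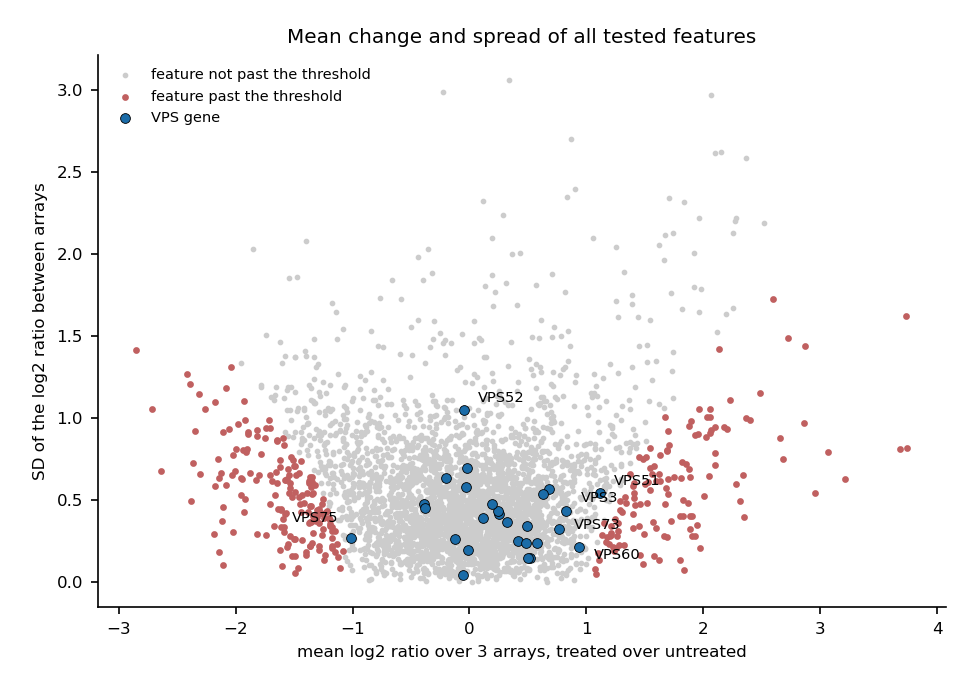
Mean log2 ratio of treated over untreated cells (x axis) against the SD between the 3 arrays (y axis) for the 3802 tested features, with called features in red and the 27 VPS genes in blue. The VPS genes sit between -1.01 and 1.11, and none is among the 299 called features, of which the smallest mean is 1.07 in size.

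Missing values fell mostly on replicate 1. Of the 40 VPS genes, replicate 1 lacked 11, replicate 2 lacked 1 and replicate 3 lacked 5. Replicates 1 to 3 had a value for 72.5%, 97.5% and 87.5% of the VPS genes, beside 77.4%, 91.9% and 84.6% of all named genes. Replicate 1 was thus the array with most missing values for all named genes as well. A value on all 3 arrays was present for 67.5% of the VPS genes and for 68.7% of all named genes. Of the 10 with values on 2 arrays, 8 lacked replicate 1, and 7 had both values above 0 (VPS5, VPS15, VPS20, VPS38, VPS41, VPS64 and VPS501). VPS34 had both below 0, and VPS35 and VPS71 were split. Among all 1177 features with values on 2 arrays, 42.1% had both above 0.

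The rest of the sorting route was read from lists of cargo, adaptor and proton pump genes. Vacuolar hydrolases, many of which this route delivers, had a median of 0.72 beside 0.26 for the VPS genes, a difference that was not tested. Of 8 measured on all 3 arrays, 1 rose, 0 fell and 8 had a mean above 0 (3.39%, 4.47% and 49.8% of all tested features), with array medians of 0.75, 0.60 and 0.74. Counts over 8 genes are too small to set against these shares. APE1, an aminopeptidase that reaches the vacuole directly from the cytoplasm and not through the endosome, was at 2.51, 1.23 and 1.91 (mean 1.88 ± 0.64) and rose (adjusted p = 0.0277). Its call was lost without replicate 1 (adjusted p = 0.0870) (mean 1.57), without replicate 3 (adjusted p = 0.0695, mean 1.87) and with no moderation of the variance (adjusted p = 0.309).

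Hydrolases that use the VPS route were measured too. PRC1 encodes carboxypeptidase Y, whose missorting defined the VPS mutants. It was at 1.32, 0.85 and 0.80 (mean 0.99 ± 0.29, limma adjusted p = 0.0651, sub-grid value 0.71). PEP4, the protease that activates other hydrolases, was at 0.85, 0.75 and 1.19 (mean 0.93 ± 0.23, adjusted p = 0.0719). Neither passed, though every array was above 0.7. CPS1 (mean 0.38 ± 0.27), APE3 (mean 0.51 ± 0.19) and DAP2 (mean 0.23 ± 0.24), also on the list of hydrolases, had smaller means and did not pass. AMS1, a mannosidase that reaches the vacuole from the cytoplasm as APE1 does, was at 1.88, 0.65 and 1.34 (mean 1.29 ± 0.62, adjusted p = 0.0527). It passed without replicate 2 (mean 1.61, limma adjusted p = 0.00555), where 17.3% of features passed. With sub-grid medians subtracted it also passed (mean 1.68, adjusted p = 0.0262), as did 10.3% of features. Array medians subtracted and a common scale gave a call too. It did not pass without replicate 1 (mean 0.997, adjusted p = 0.217), without replicate 3 (mean 1.27, adjusted p = 0.133) or with no moderation (adjusted p = 0.328). PHO8, the vacuolar alkaline phosphatase that travels by the AP-3 route, had a mean of 0.03 ± 0.20.

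The adaptors that load cargo at the Golgi gave 0 calls among 3 measured on all arrays, beside 7.86% of all tested features. A count over 3 genes is too small to set against that share. GGA2, a clathrin adaptor of the Golgi-to-endosome step, was at -1.83, -1.998 and -0.55 (mean -1.46 ± 0.79, adjusted p = 0.0502), just outside the threshold. It passed without replicate 2 (mean -1.19, limma adjusted p = 0.0473), where 17.3% of features passed. It also passed with array medians subtracted (mean -1.48, adjusted p = 0.0439), a common scale and array weights. It did not pass without replicate 1 (mean -1.27, adjusted p = 0.187), without replicate 3 (mean -1.91, adjusted p = 0.0601) or with no moderation (adjusted p = 0.340). With sub-grid medians subtracted its mean was -0.90 (adjusted p = 0.0522). Its paralogue GGA1 was at 0.87 and 1.19 on replicates 2 and 3, with no value on replicate 1, so the 2 genes lay on opposite sides of 0. Of the AP-3 genes, APL6 and APM3 had means of -0.21 and -0.22. APL5 was at -0.96 and -0.72 on replicates 1 and 2, and APS3 at 0.31 and 0.53 on replicates 2 and 3, so the AP-3 genes had no common direction.

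The vacuolar H+-ATPase, the pump that acidifies the vacuole, gave 0 calls among 14 genes, beside 7.86% of all features. The list's median was -0.16 (-0.10, -0.19 and -0.38 by array), and 5 of the 14 means were above 0 and 9 below, beside 49.8% above 0 over all features. Counts over 14 genes are too small to set against these shares. VMA1, the catalytic subunit, was at -0.77, -1.39 and -0.65 (mean -0.94 ± 0.39, limma adjusted p = 0.0820, sub-grid value -0.66), below 0 on each array. Over the lists together, 43 genes of other names were measured on all 3 arrays, and APE1 was the 1 that passed (0 fell), beside 7.86% of all features. That count was 0 to 3 over the arrays left out.

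**Figure D4:**
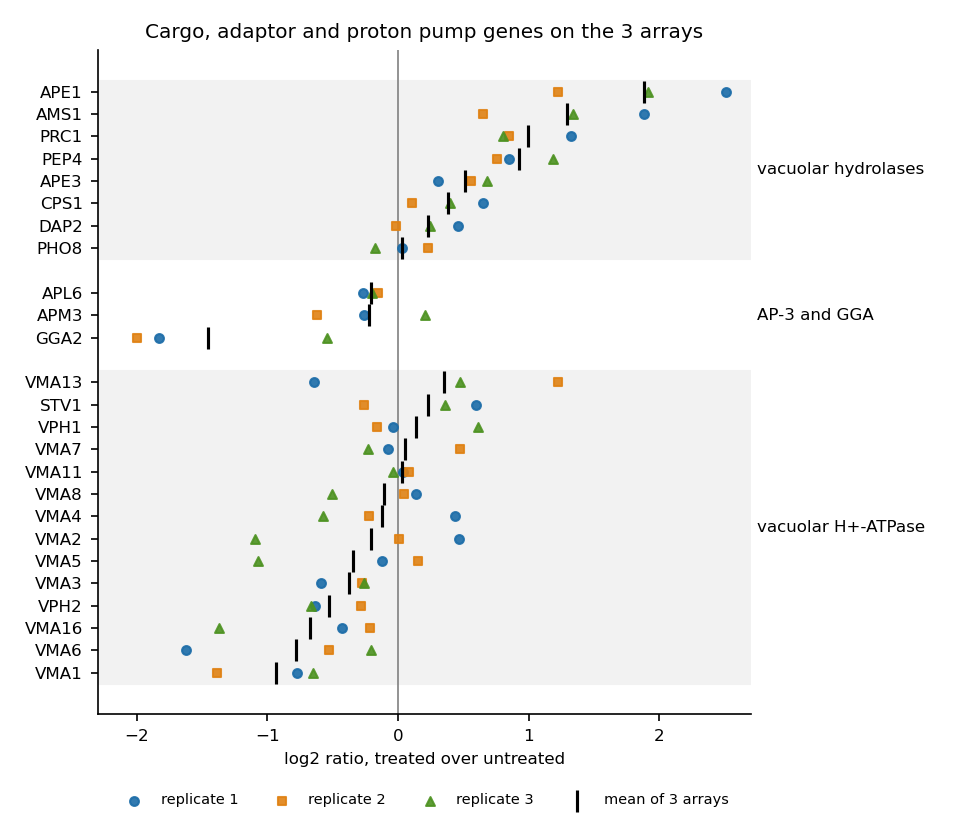
Log2 ratio of treated over untreated cells (x axis) for genes of vacuolar hydrolases, Golgi adaptors and the vacuolar proton pump measured on all 3 arrays (y axis), with a symbol for each array and a black bar for the mean. All 8 hydrolase means lie above 0, from 0.03 for PHO8 to 1.88 for APE1, and 9 of the 14 proton pump means lie below 0.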

How the data were processed

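Messenger RNA ratios were measured on 3 two-colour arrays. The authors' deposited values are log2 ratios as read here; per the labels, they come from LOWESS normalization of the spots flagged 0. Log base, direction, scanner, image software and background correction are not given in the sources used here. Probes were named by the platform annotation table (5308 of 6272 with 1 symbol, 964 with none), and probes of a gene were averaged per array. Of the 5203 named genes, 5199 matched the reference gene table, which gave locus tags, synonyms and gene order.

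The mean log ratio of 3802 features with a value on all 3 arrays was compared with 0 by limma's lmFit and eBayes (limma 3.58.1, R 4.3.3, intercept only, 5.10 prior degrees of freedom, two-sided, Benjamini-Hochberg over all features, threshold 0.05), and the code was tested on simulated data. Errors are SDs over arrays. Without intensities the depth is unknown, and the number of arrays limits the precision. The rule for named genes gave array values for every VPS gene of a complex measured on all arrays, for other VPS genes with 1 sign on all 3, and for called or leading pathway genes; values of further VPS genes, and of further pathway genes, were added after they were seen. The members, lists and alternatives were chosen with earlier results of these data known. The layout of 32 sub-grids was inferred from the probe numbers. Alternatives were other centring and scaling, sub-grid medians, fewer arrays, no moderation, array weights, first listed probes, synonyms and a looser threshold.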

Additional observations from a re-analysis of the deposited data

How the results depend on the processing

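The count of 299 called features became 1 with no moderation and 715 with an adjusted p of 0.1; leaving out an array gave 0 to 657. The count of VPS genes called was 0 in each setting except a common scale, where it was 1 (VPS75), and an adjusted p of 0.1, where it was 3 (VPS51, VPS60 and VPS75, beside 18.8% of all features). Adding genes with a VPS synonym left it at 0. For the other pathway genes the count of 1 became 3 with array medians subtracted, 3 with a common scale, 2 with sub-grid medians subtracted, 2 with array weights, 0 with no moderation and 0 to 3 over the arrays left out. The median of HOPS and CORVET was 0.32 with values on at least 2 arrays and 0.038 with sub-grid medians subtracted. That of GARP was -0.053 with sub-grid medians subtracted and 0.28 to 0.43 over the arrays left out. The median over all VPS genes was 0.14 to 0.37 over all settings. Signs turned for 8 VPS genes, all with a mean within 0.20 of 0. Over the arrays left out they ran from -0.10 to 0.094 for VPS4, -0.55 to 0.051 for VPS24, -0.031 to 0.34 for VPS28, -0.28 to 0.29 for VPS33, -0.38 to 0.56 for VPS52, -0.42 to 0.21 for VPS53, -0.067 to 0.40 for VPS62 and -0.26 to 0.010 for VPS74, and VPS24 was at 0.23 with sub-grid medians subtracted. The cause was not tested. No paired analysis was possible because there is 1 group of ratios and no other group shares its replicate numbers; each ratio already sets treated against untreated cells on 1 array. With 3 arrays of the same dye orientation and no intensities, signal over background was unknown.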

Other observations

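A further 16 genes on the array have a synonym of VPS and digits but another main symbol, and 11 of them had a value on all 3 arrays. None of the 11 passed the test, beside 7.86% of all tested features. PEP12 alone had an unadjusted p under 0.05, beside 29.7% of all features. Counts over 11 genes are too small to set against these shares. With the 11 added, the median of the means was 0.22 over 38 genes. Among those not described above, NHX1, the endosomal sodium and proton exchanger, was at 0.06, 0.10 and 1.45 on replicates 1 to 3 (mean 0.54 ± 0.79, limma adjusted p = 0.343), high on replicate 3 only. The vacuolar SNARE gene VAM7 was at 0.29, -0.02 and -0.14 (mean 0.04 ± 0.22). SNF8, an ESCRT-II subunit, was at 0.51 and 0.50 on replicates 1 and 2, and SNF7, the main ESCRT-III subunit, had only a value of -0.11 on replicate 2.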
